A study of Mus musculus with 8 samples.

Results

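Wild-type Swiss Webster cochlear explants carried replicate numbers 1 to 4 in both treatments of this experiment, and the libraries numbered 1 and 4 were set against those numbered 2 and 3. The 4 libraries numbered 1 and 4 were CHIR99021 replicates 1 and 4 and control replicates 1 and 4, out of 8 libraries in all, and the other 4 were CHIR99021 replicates 2 and 3 and control replicates 2 and 3. CHIR99021 blocks the kinase GSK3, which lets β-catenin accumulate and turn on Wnt target genes. It was given at 10 µM for 6 h, and the controls received vehicle (DMSO). On the stage the labels differ, with E14.0 given for the tissue and E12.5 for the explants, which were kept in culture for 24 h before the treatment. RNA was poly(A)-selected and sequenced strand-specifically. In both treatments the labels mark numbers 1 and 3 as female and numbers 2 and 4 as male, so each side held 1 female and 1 male number per treatment. Nothing in the labels says what else, if anything, the libraries of a side shared.

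The sides were chosen on the expression values themselves. The second principal component of log2(CPM + 1), where CPM is a gene's reads scaled to a common library total, carried 16.8% of the variance over the 14264 genes that averaged 1 CPM or more. Its scores were 15.4 and 17.4 in CHIR99021 replicates 1 and 4, against -13.0 and -11.5 in CHIR99021 replicates 2 and 3. In control they were 10.9 and 5.20 in replicates 1 and 4, against -6.49 and -17.9 in replicates 2 and 3. Every difference between the sides given here is therefore a description of these 8 libraries and carries no test. The difference is the mean of log2(CPM + 1) in replicates 1 and 4 minus that in replicates 2 and 3, averaged over the 2 treatments. A gene is called apart where both libraries of 1 side lay above both of the other in CHIR99021, and again in control, in the same direction. The assigned reads ranged from 66509285 to 89269187 in replicates 1 and 4 and from 64905007 to 83284005 in replicates 2 and 3, which put the value of a single read at 0.0112 to 0.0154 CPM. The otic epithelium was well represented, with 20 of 21 genes of the otic and prosensory list at a mean CPM of at least 1.

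Poly(A) selection keeps messenger RNA and long noncoding RNA and removes most ribosomal RNA. Some transcripts are retained in the nucleus, among them Malat1 and Neat1, which lie in and beside nuclear speckles and paraspeckles, and partly spliced messages that keep an intron. Mitochondria transcribe their own circular genome, and their short poly(A) tails bring these RNAs into such libraries. Stretches of the mitochondrial genome have also been copied into chromosomes over evolution, and a read from a recent copy cannot be told from a read of the mitochondrial gene.

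Of the classes listed, mitochondrially encoded RNA had the largest median difference between the sides, and its values have to be read with those of its nuclear copies. A block on chromosome 1 (GRCm38, chr1:24611535-24616197, minus strand) holds 7 annotated pseudogenes that follow the mitochondrial gene order. Over the bases that each pair shares, mt-Co2, mt-Atp6, mt-Co3, mt-Nd4l and mt-Nd4 had 0 differences from Gm28661 (681 bases), Gm10925 (678 bases), Gm28437 (783 bases), Gm10222 (294 bases) and Gm28439 (876 bases). The first 75 bases of mt-Co3 (chrM:8607-8681, plus strand), subunit III of cytochrome c oxidase, and of Gm28437 (chr1:24613897-24613971, minus strand) are shown because 75 bases is the sequenced length and a read from here is the same for both.
mt-Co3: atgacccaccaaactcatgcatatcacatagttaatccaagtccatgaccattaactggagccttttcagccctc
Gm28437: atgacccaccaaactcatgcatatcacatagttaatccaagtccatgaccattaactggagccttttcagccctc

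The pair mt-Nd3 (chrM:9459-9533, plus strand), a complex I subunit, and Gm28438 (chr1:24613045-24613119, minus strand) differed at 1 of 345 bases, T3C counted from the first base of mt-Nd3, which is in capitals.
mt-Nd3: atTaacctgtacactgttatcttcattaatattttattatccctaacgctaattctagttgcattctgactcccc
Gm28438: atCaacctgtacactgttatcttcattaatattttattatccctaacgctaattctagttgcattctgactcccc

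The copy of mt-Co1, subunit I of cytochrome c oxidase, was shorter: Gm29216 covered its last 492 bases with 6 differences, T1056A, C1057T, A1059G, A1060G, C1062A and A1066T, all within the stretch shown (chrM:6381-6455 and chr1:24616123-24616197) and in capitals. Most of the length of mt-Co1 therefore lies outside the copy, but where along the gene its reads fall was not measured.
mt-Co1: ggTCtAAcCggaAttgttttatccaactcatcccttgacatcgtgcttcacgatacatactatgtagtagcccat
Gm29216: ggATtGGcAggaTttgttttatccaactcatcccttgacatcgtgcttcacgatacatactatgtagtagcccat

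Of all 14264 genes, 221 were apart and higher in replicates 1 and 4 by at least 0.5 on the log2 scale (1.55%), and 39 were apart and lower by as much (0.273%). At any size, 1430 genes were apart and higher (10.0%) and 1490 apart and lower (10.4%). The median difference over all genes was -0.02 with an SD of 0.22, so that the larger differences lay mostly on the higher side. The 221 genes comprised 16 mitochondrial genes, 127 other protein-coding genes, 21 TEC loci (GENCODE's class for transcribed loci awaiting experimental follow-up), 13 processed transcripts, 12 lincRNAs, 8 antisense genes, 7 sense-intronic genes, 7 processed pseudogenes and a few genes of other kinds. Among the 39 there were 12 protein-coding genes and 15 processed pseudogenes. All 14264 genes held 12854 protein-coding genes (mitochondrial ones included), 596 processed pseudogenes, 179 lincRNAs, 61 TEC loci and 10 sense-intronic genes. Of all processed pseudogenes 2.52% were apart and lower by at least 0.5, and of all protein-coding genes 0.0934%. Just inside the limit of 0.5 lay Rad54b at 0.50 and Scand1 at -0.50, and just outside it Ankle1 at 0.50 and Ccdc3 at -0.50, so the limit is no natural gap.

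Mitochondrial RNAs were higher in replicates 1 and 4 in nearly every case. Of 37 mitochondrial genes, 19 had a mean CPM of at least 1, and 16 of these were apart and higher by at least 0.5 and 0 lower, with a median difference of 1.19 (1.10 in CHIR99021 and 1.20 in control). Among these were 5 mRNAs with no listed copy, mt-Cytb, mt-Nd1, mt-Nd2, mt-Nd5 and mt-Nd6. Cytochrome b mRNA (mt-Cytb) had 1400 and 1986 CPM in CHIR99021 replicates 1 and 4, against 715 and 958 CPM in replicates 2 and 3. In control mt-Cytb had 1955 and 1883 CPM in replicates 1 and 4, against 797 and 928 CPM in replicates 2 and 3. The 2 sides did not overlap for this gene in either treatment, and the difference was 1.08. mt-Nd6, the only mRNA of the light strand, differed by 1.15, mt-Nd5 by 1.00, mt-Nd1 by 0.88 and mt-Nd2 by 0.85. The ribosomal RNAs of the mitochondrion differed less, mt-Rnr2 by 0.72 and mt-Rnr1 by 0.54. mt-Rnr1 had 97 and 118 CPM in CHIR99021 replicates 1 and 4, against 76.0 and 71.4 CPM in replicates 2 and 3, and in control 141 and 116 CPM against 79.1 and 94.9 CPM. Summed over these 5 mRNAs the difference was 0.98. mt-Atp8, a short ATP synthase subunit gene with no listed copy of its own that overlaps mt-Atp6, stood apart from them. The mRNA genes on either side of it, mt-Co2 and mt-Atp6, both have copies in the chromosome 1 block. Whether the unannotated stretch between those copies matches mt-Atp8 was not tested. mt-Atp8 had 1.62 and 22.6 CPM in CHIR99021 replicates 1 and 4, against 0.06 and 0.07 CPM in replicates 2 and 3. In control it had 19.1 and 22.1 CPM against 7.96 and 9.82 CPM, and the difference was 2.01.

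Several genes with a near-identical copy had larger and more uneven differences, as mt-Atp8 did, but mt-Co1 with its partial copy did not. mt-Co1 had 2918 and 5009 CPM in CHIR99021 replicates 1 and 4, against 1395 and 1895 CPM in replicates 2 and 3, and in control 4657 and 4600 CPM against 1675 and 2003 CPM, a difference of 1.28. mt-Co3 had 193 and 2279 CPM in CHIR99021 replicates 1 and 4, against 5.82 and 2.43 CPM in replicates 2 and 3, and in control 2471 and 2191 CPM against 552 and 776 CPM. The difference of 4.47 for mt-Co3 thus rested on a far wider gap in CHIR99021 (7.10) than in control (1.83), and CHIR99021 replicate 1 lay well below replicate 4. The same form held for mt-Co2 (4.68), mt-Nd4l (4.21) and mt-Nd3 (3.52). mt-Atp6, a subunit of the ATP synthase, was the 1 coding gene of the mitochondrion whose sides overlapped, with 98.2 and 1214 CPM in CHIR99021 replicates 1 and 4 against 280 and 1.48 CPM in replicates 2 and 3.

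The nuclear copies were far higher in CHIR99021 replicates 2 and 3 than elsewhere. Of the 7, Gm28438 was also apart in control in the same direction, with 4.78 and 5.22 CPM in replicates 1 and 4 against 6.56 and 5.46 CPM in replicates 2 and 3. Not all copies went that way in control: Gm28439 had 0.99 and 0.72 CPM in replicates 1 and 4 against 0.68 and 0.42 CPM in replicates 2 and 3. Gm28437 had 2.57 and 2.54 CPM in CHIR99021 replicates 1 and 4, against 82.1 and 878 CPM in CHIR99021 replicates 2 and 3, while in control it had 3.57 and 2.26 CPM against 3.14 and 3.04 CPM. Gm29216 had 0.53 and 0.66 CPM in CHIR99021 replicates 1 and 4, against 16 and 229 CPM in replicates 2 and 3, and between 0.44 and 0.84 CPM in the 4 control libraries. Added up, the 7 copies took 13.3 and 12.6 CPM in CHIR99021 replicates 1 and 4, against 250 and 2977 CPM in replicates 2 and 3, and 16.2 and 12.9 CPM against 14.6 and 13.6 CPM in control. High values of the copies were thus seen in CHIR99021 replicates 2 and 3 and in no other library, with Gm28439 high in replicate 2 alone, at 13.0 CPM. With gene and copy added together, mt-Co3 and Gm28437 had 195 and 2282 CPM in CHIR99021 replicates 1 and 4 against 87.9 and 880 CPM in replicates 2 and 3, and in control 2475 and 2193 CPM against 555 and 779 CPM. The sum differed by 1.54, and its sides overlapped in CHIR99021 but not in control. All mitochondrial genes and the copies together had 8721 and 18710 CPM in CHIR99021 replicates 1 and 4, against 4750 and 8386 CPM in replicates 2 and 3, and in control 18223 and 17389 CPM against 6066 and 7548 CPM. How reads with more than 1 equal match were assigned is not given in the sources used here, and its part in these values was not tested.

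**Figure D1:**
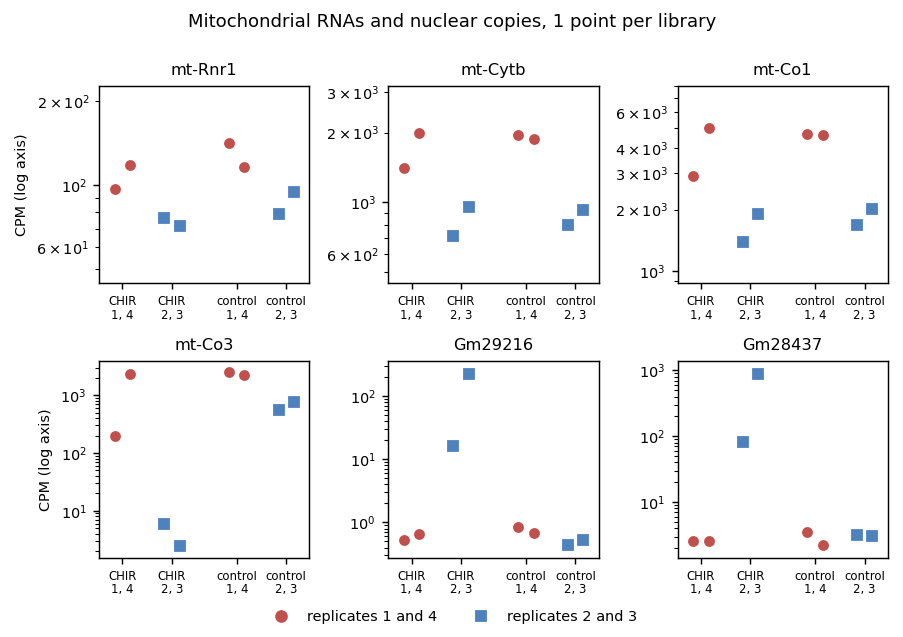
CPM of 4 mitochondrial RNAs and 2 of the nuclear copies, 1 point per library on a log axis, with replicates 1 and 4 (circles) left of replicates 2 and 3 (squares) in each treatment. mt-Rnr1, mt-Cytb, mt-Co1 and mt-Co3 lie higher in replicates 1 and 4 in both treatments, and Gm29216 and Gm28437 are high only in CHIR99021 replicates 2 and 3.

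Nuclear noncoding RNAs were also mostly higher. Of 16 listed genes 11 were expressed. Of these, 6 were apart and higher by at least 0.5 (54.5%, against 1.55% of all genes), among them Miat, Malat1, Kcnq1ot1 and Mirg. Only 1 was apart and lower (Rmrp), and the list median was 0.54. Malat1 (chr19:5795690-5802672, minus strand), the abundant RNA of nuclear speckles, had 1471 and 1621 CPM in CHIR99021 replicates 1 and 4, against 521 and 668 CPM in replicates 2 and 3. In control Malat1 had 2308 and 1521 CPM in replicates 1 and 4, against 1078 and 359 CPM in replicates 2 and 3, and the difference over both treatments was 1.49. Control replicate 2 stood nearer to replicates 1 and 4 than control replicate 3 did. Miat (chr5:112213228-112229395, minus strand), another long RNA held in the nucleus, had 57.7 and 59.3 CPM in CHIR99021 replicates 1 and 4 against 17.6 and 20.8 CPM in replicates 2 and 3, and in control 79.9 and 63.4 CPM against 34.5 and 12.5 CPM (difference 1.64). Kcnq1ot1, the paternally expressed antisense RNA of an imprinted domain, differed by 1.47. It had 75.3 and 78.5 CPM in CHIR99021 replicates 1 and 4 against 26.2 and 35.9 CPM in replicates 2 and 3, and in control 106 and 88.5 CPM against 71.8 and 12.4 CPM. Neat1, the scaffold of paraspeckles, differed by 1.08 and Mir17hg, the host transcript of the miR-17 cluster, by 0.96. Firre, an X-linked RNA of the nuclear matrix that is not on the list, differed by 0.94. Rmrp, the RNA of RNase MRP, was low everywhere and went the other way, with 1.05 and 1.29 CPM in CHIR99021 replicates 1 and 4 against 4.24 and 2.21 CPM in replicates 2 and 3, and in control 0.58 and 1.42 CPM against 2.08 and 2.19 CPM. Summed over the list, the levels were 1819 and 1956 CPM in CHIR99021 replicates 1 and 4 against 762 and 898 CPM in replicates 2 and 3, and in control 2682 and 1843 CPM against 1342 and 524 CPM.

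TEC loci and sense-intronic genes leaned the same way. Of 61 TEC loci 21 were apart and higher by at least 0.5 (34.4%, against 1.55% of all genes) and 0 lower. Their median was 0.37 (0.74 with a pseudocount of 0.1). Of 10 sense-intronic genes 7 were apart and higher by as much (70%) and 0 lower, with a median of 0.66. Of the TEC loci 23 lay inside the span of a protein-coding gene on the same strand, and 12 of these 23 were apart and higher, with a median of 0.71. Those lying inside coding genes summed to 136 and 137 CPM in CHIR99021 replicates 1 and 4, against 51.8 and 69.3 CPM in replicates 2 and 3, and in control to 181 and 143 CPM against 124 and 43.5 CPM. A read from an unspliced precursor and a read from such a locus cannot be told apart.

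Some single genes with a role in splicing were also higher. They were picked after their values were seen and because they were higher, so they say nothing of splicing genes as a class, which were not tallied. Leng8 had 158 and 140 CPM in CHIR99021 replicates 1 and 4 against 73.2 and 88.9 CPM in replicates 2 and 3, and in control 191 and 152 CPM against 129 and 69.0 CPM (difference 0.86). Pnisr, a serine- and arginine-rich nuclear protein, differed by 0.77 and Rsrp1, another such protein, by 0.71. Pnisr had 220 and 203 CPM in CHIR99021 replicates 1 and 4, against 115 and 131 CPM in replicates 2 and 3. Ccnl2, a cyclin of splicing kinases, differed by 0.58, and Clk1, a kinase of splicing factors whose own message retains introns, by 0.56. Clasrp and Paxbp1 each differed by 0.55. Srsf5 at 0.48, Srrm2 at 0.47 and Son at 0.30 were apart in both treatments but under the limit of 0.5. For the 205 genes apart and higher outside the mitochondrion, control replicate 2 lay above control replicate 3 in 179, while CHIR99021 replicate 2 lay above CHIR99021 replicate 3 in 85.

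**Figure D2:**
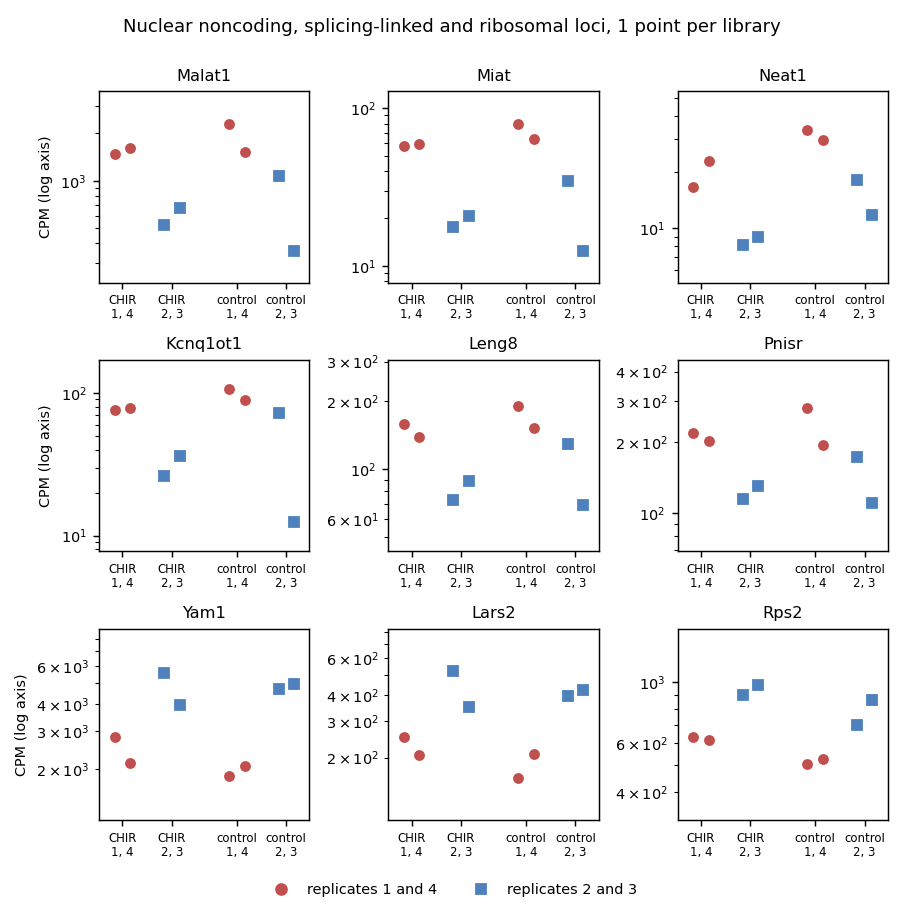
CPM of 9 loci, 1 point per library on log axes, with replicates 1 and 4 (circles) left of replicates 2 and 3 (squares) in each treatment. The 4 nuclear RNAs and the splicing-linked Leng8 and Pnisr lie higher in replicates 1 and 4, and Yam1, Lars2 and Rps2 lie lower, with no overlap in either treatment.

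Among other protein-coding genes apart in both treatments the largest differences were Hist1h2ap at 1.96, Arntl2 at 1.32 and Spaca6 at 1.25, followed by Acan at 1.05 and Ildr2 at 0.99. Arntl2, a paralog of the clock factor BMAL1, had 4.98 and 5.47 CPM in CHIR99021 replicates 1 and 4 against 1.36 and 1.20 CPM in replicates 2 and 3, and in control 7.0 and 4.76 CPM against 2.35 and 1.62 CPM. Spaca6, a sperm membrane protein needed for fertilisation, had 58.4 and 57.8 CPM in CHIR99021 replicates 1 and 4 against 22.3 and 27.4 CPM in replicates 2 and 3, and in control 99.99 and 67.9 CPM against 55.3 and 19.2 CPM. Both genes showed the sides without overlap. Hist1h2ap, a histone H2A gene of which 88.6% of the sampled 75-base windows occur in another gene, had 20.8 and 27.4 CPM in CHIR99021 replicates 1 and 4 against 3.7 and 11.5 CPM in replicates 2 and 3, and in control 0.85 and 27.3 CPM against 0.57 and 0.53 CPM. Its control difference of 2.22 rested largely on control replicate 4, and that in CHIR99021 was 1.70. Aggrecan (Acan, chr7:79053483-79115099, plus strand), the large proteoglycan of cartilage, had 38.3 and 37.9 CPM in CHIR99021 replicates 1 and 4 against 18.8 and 17.6 CPM in replicates 2 and 3, and in control 65.1 and 76.9 CPM against 37.9 and 28.6 CPM.

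Collagens, the fibre and network proteins of the matrix, leaned to replicates 1 and 4. Of 36 collagen genes 14 were apart and higher, 7 of them by at least 0.5, and 0 were apart and lower, with a median of 0.18. Col4a6, a basement membrane chain, had the largest difference, 1.20, but its sides overlapped in control. Among those apart, Col7a1 of anchoring fibrils differed by 0.76, Col8a2 by 0.67, Col12a1 by 0.66 and Col6a6 by 0.64. Col7a1 had 50.2 and 41.5 CPM in CHIR99021 replicates 1 and 4 against 25.3 and 30.8 CPM in replicates 2 and 3, and in control 56.8 and 41.1 CPM against 32.7 and 22.0 CPM. Col12a1 had 89.6 and 78.4 CPM in CHIR99021 replicates 1 and 4 against 46.7 and 64.1 CPM in replicates 2 and 3, and in control 192 and 165 CPM against 112 and 105 CPM. Col2a1, the main collagen of cartilage, was nearly even, with a difference of 0.21 and sides that overlapped in control. In the clustered protocadherins, neuronal adhesion genes built from variable exons, 7 of 36 were apart and higher (19.4%) and 0 lower. Of these 7, 4 differed by at least 0.5 (11.1% of the 36), but the class median was 0.00.

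Many of these genes are long, and the difference between the sides followed the number of exons in the longest annotated transcript. Among 488 coding genes of 33 exons or more, 32.2% were apart and higher and 0% apart and lower, with a median of 0.14, where all genes had 10.0% and 10.4%. Among 749 coding genes with 1 exon, 7.61% were apart and higher and 18.3% apart and lower, with a median of -0.07. The medians lay in order between these ends, at -0.07 for 2 to 4 exons, -0.05 for 5 to 8, 0.00 for 9 to 16 and 0.07 for 17 to 32. By length of the longest transcript, the median was -0.11 in the shortest decile of coding genes and 0.08 in the longest decile. By GC content the medians followed no such order, at -0.04 in both the lowest and the highest decile and 0.01 in decile 7. The share apart and higher did vary, at 4.82% in the lowest decile, 14.4% in decile 7 and 10.3% in the highest. The share apart and lower was 11.1%, 7.87% and 12.1% in these deciles. Examples of abundant long genes were Hspg2 (perlecan) at 0.42, Lrp1 at 0.42, Dync1h1 (the dynein heavy chain) at 0.38, Ubr4 at 0.36 and Fn1 (fibronectin) at 0.32, all of them apart in both treatments. The sum of coding genes of 33 exons or more was 70241 and 70794 CPM in CHIR99021 replicates 1 and 4 against 59781 and 64847 CPM in replicates 2 and 3, and in control 72042 and 73110 CPM against 69400 and 62670 CPM. The differences in this order were small for single genes. Length and exon number were each tabulated alone and not 1 within the other, so their parts were not separated. Mitochondrial genes such as mt-Co2, mt-Co3 and mt-Nd4l were counted both among the genes with 1 exon and in the shortest decile.

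**Figure D3:**
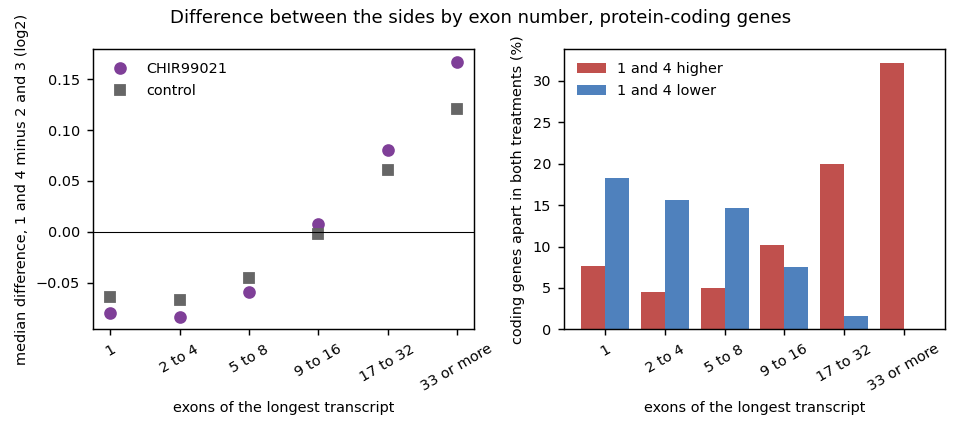
Protein-coding genes by the number of exons of the longest transcript: the left panel plots the median difference (log2, 1 and 4 minus 2 and 3) in CHIR99021 and in control, the right panel the percent of genes apart in both treatments. Medians lie below 0 for genes of up to 8 exons and above 0 for 17 exons or more in both treatments, and the share apart and higher reaches 32.2% at 33 exons or more.

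Short housekeeping messages leaned the other way. Of 82 cytoplasmic ribosomal protein genes 22 were apart and lower (26.8%, against 10.4% of all genes) and 1 apart and higher, with a median of -0.15. Of 75 mitochondrial ribosomal protein genes 22 were apart and lower (29.3%) and 2 higher, with a median of -0.11. Of 86 nuclear genes of oxidative phosphorylation 24 were apart and lower (27.9%) and 1 higher, with a median of -0.14. Nuclear and mitochondrial genes of the respiratory chain therefore differed in opposite directions. Few of these differences reached 0.5: among the genes apart, Rps2 did so on the lower side, and Rpl7a at 0.57 and Ndufaf1, a complex I assembly factor, at 0.51 on the higher side. The summed ribosomal protein level overlapped between the sides in control, with 26532 and 31206 CPM in replicates 1 and 4 and 30811 and 32894 CPM in replicates 2 and 3. In the unfolded protein and amino acid response 5 of 16 genes were apart and lower (31.25%, against 10.4% of all genes) and 0 higher. Sdf2l1, an endoplasmic reticulum chaperone partner, led them at -0.48.

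The genes lower in replicates 1 and 4 included an abundant locus related to ribosomal RNA and 5 others of unlike annotation, grouped after their values were seen. Yam1 (chr17:39846958-39848788, plus strand) is annotated as a lincRNA, and 94.7% of its sampled windows also occur in other genes, most often in 1 annotated as ribosomal RNA. It had 2819 and 2121 CPM in CHIR99021 replicates 1 and 4, against 5570 and 3944 CPM in replicates 2 and 3, and in control 1855 and 2070 CPM against 4712 and 4944 CPM, a difference of -1.12. Lars2 (chr9:123366927-123462666, plus strand), the mitochondrial leucyl-tRNA synthetase, had 250.0 and 205 CPM in CHIR99021 replicates 1 and 4 against 520 and 349 CPM in replicates 2 and 3, and in control 160.3 and 207 CPM against 396 and 424 CPM (difference -1.04). Gm23935, a predicted miRNA gene, had 94.9 and 78.7 CPM in CHIR99021 replicates 1 and 4 against 307 and 277 CPM in replicates 2 and 3, and in control 50.3 and 96.5 CPM against 167 and 204 CPM (difference -1.57). Gm24270, also a predicted miRNA gene, differed by -1.51, the antisense gene Gm15564 by -1.25 and the miRNA gene Mir6236 by -0.91. All 6 loci had sides without overlap in both treatments, and control replicate 2 here lay with control replicate 3. Of the windows of Lars2, Gm15564 and Mir6236, 0% occur in an annotated transcript of another gene. That search covered annotated transcripts only, so it cannot show whether these loci hold ribosomal RNA sequence. The part of ribosomal RNA in the reads of Yam1 and of the 5 other loci was not tested.

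Of the 12 protein-coding genes apart and lower by at least 0.5, Lars2 led, followed by Rnaset2b at -0.83, 2410127L17Rik at -0.76, Tmsb10 at -0.74, Acot9 and Nrtn at -0.64 and Rps2 at -0.58. Tmsb10, an actin-binding thymosin, had 78.5 and 68.1 CPM in CHIR99021 replicates 1 and 4 against 155 and 126 CPM in replicates 2 and 3, and in control 70.4 and 99.6 CPM against 137 and 110 CPM. Nrtn, the neurotrophic ligand neurturin, had 4.33 and 6.00 CPM in CHIR99021 replicates 1 and 4 against 9.63 and 10.5 CPM in replicates 2 and 3, and in control 5.96 and 9.69 CPM against 9.73 and 11.6 CPM, so that control replicates 2 and 4 nearly met. Gal3st1, the sulfotransferase that makes sulfatide, had 7.11 and 7.77 CPM in CHIR99021 replicates 1 and 4 against 13.1 and 11.4 CPM in replicates 2 and 3, and in control 11.4 and 13.4 CPM against 16.9 and 18.7 CPM (difference -0.57). Of the windows of Rnaset2b 74.9% occur in other genes, most often in Rnaset2a, which itself differed by 0.01.

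Genes that share sequence with another gene were common among those apart and lower. The measure counts any shared window, so it does not tell a copy from an overlapping annotated gene. Genes with at least 50% of their sampled 75-base windows in another gene made up 18 of these 39 (46.2%) and 21 of the 221 apart and higher (9.50%), where 878 of all 14264 genes had such a share. In the family of Rps2 parent and copy differed in opposite directions. Rps2 (chr17:24718116-24721929, plus strand), a protein of the small ribosomal subunit, had 635 and 620 CPM in CHIR99021 replicates 1 and 4 against 897 and 977 CPM in replicates 2 and 3, and in control 506 and 527 CPM against 701 and 860 CPM. Its copy Rps2-ps10 had 67.1 and 54.2 CPM in CHIR99021 replicates 1 and 4 against 24.4 and 14.2 CPM in replicates 2 and 3, and in control 24.4 and 48.4 CPM against 13.1 and 12.6 CPM, a difference of 1.5. In the families of Timm23 and Rpl15 parent and copy differed in the same direction by unlike amounts. Gm10171, whose windows all occur in other genes, differed by -1.54. They occur most often in Timm23, the gene of a protein import subunit of the mitochondrial inner membrane, which differed by -0.19. Rpl15-ps3 differed by -1.47 and its parent Rpl15 by -0.04. Rpl15-ps3 owed this to CHIR99021 replicate 2, at 27.7 CPM, with 0.28 to 2.03 CPM in the other 7 libraries. The part of the assignment of equal matches in these values was not tested.

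Over 17 cell type marker lists with 194 genes tested, 13 genes were apart and higher (6.70%) and 5 apart and lower (2.58%), below the 10.0% and 10.4% of all genes, and 2 (Acan and Cdh19, a glial cadherin) differed by at least 0.5. Cartilage stood out in count, with 5 of its 16 genes apart and higher (31.25%) and all 16 differences above 0, at a median of 0.12. Collagen genes such as Col11a1 and Col11a2 are on this list too, so its count is not separate from that of the collagens. The list medians ran from -0.19 (hindbrain and neural tube, 6 genes) to 0.23 (skeletal muscle, 4 genes). The otic and prosensory list had a median of -0.02, with 0 of 20 genes apart and higher and 1 lower, the epithelial list -0.04, neurons -0.06, endothelium 0.07 and periotic mesenchyme -0.06. Erythroid genes summed to 777 and 670.0 CPM in CHIR99021 replicates 1 and 4 against 633 and 677 CPM in replicates 2 and 3, and in control to 737 and 656 CPM against 626 and 1032 CPM, which overlapped. In these bulk samples fewer cells of a type and less RNA per cell cannot be told apart. Of 23 Wnt targets 0 were apart in either direction, with a median of 0.00. The S phase list (28 genes) had a median of 0.01 and the mitosis list (28 genes) 0.08. In the interferon list, whose median was -0.25, 0 of 13 genes were apart, and Ifit1 differed by -0.85 with overlap.

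**Figure D4:**
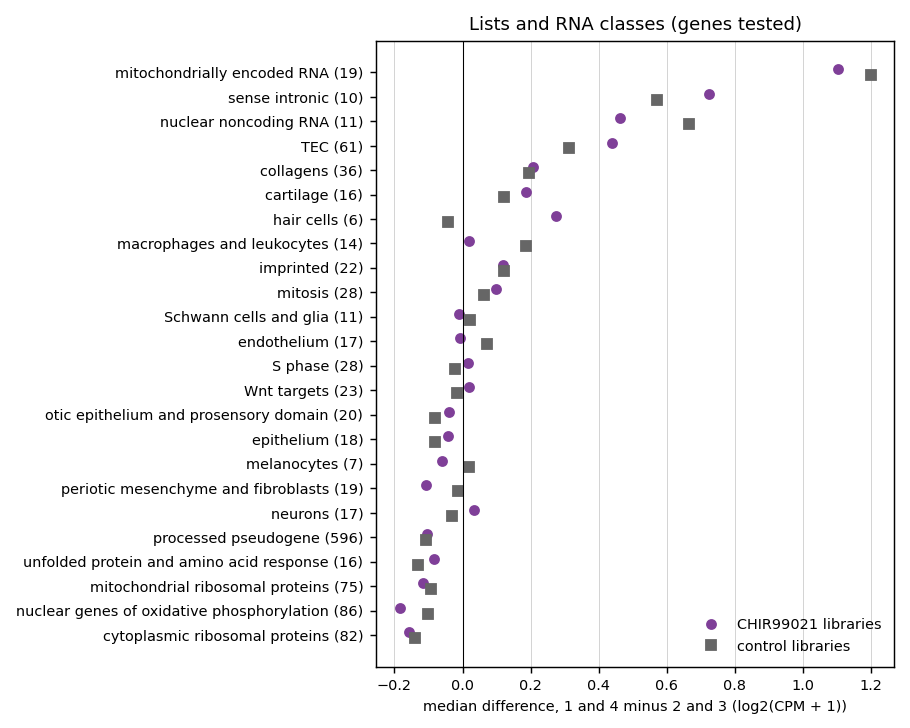
Median difference (log2(CPM + 1), 1 and 4 minus 2 and 3) of 24 gene lists and RNA classes, in CHIR99021 (circles) and in control (squares), with the number of genes tested in brackets. Mitochondrially encoded RNA, sense-intronic genes, nuclear noncoding RNA and TEC loci stand to the right in both treatments, and the ribosomal protein and oxidative phosphorylation classes to the left.

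The sides also differed in how many genes had any read. At least 1 read was found for 22926 and 22879 genes in CHIR99021 replicates 1 and 4, against 20455 and 20301 in replicates 2 and 3, and in control for 24249 and 22838 genes against 20529 and 20698. At an equal depth of 64700898 reads per library, by expectation over random draws of the recovered reads, these numbers were 22749 and 22849 against 20455 and 20259 in CHIR99021, and 23771 and 22619 against 20519 and 20571 in control. The gap lay in genes of very few reads. Exactly 1 read was recorded for 1138 and 1230 genes in CHIR99021 replicates 1 and 4 against 527 and 418 in replicates 2 and 3, and in control for 1436 and 937 genes against 424 and 496. At 10 reads or more the counts were 18210 and 17952 against 17539 and 17715 in CHIR99021, and 19049 and 18522 against 18091 and 18273 in control. With reads in at least 3 of the 4 libraries 1 and 4 and in 0 of the libraries 2 and 3 there were 687 genes, of which 213 were protein-coding, 78 processed pseudogenes and 75 TEC loci. The reverse was found for 13 genes. The 687 genes had a median of 2 reads and at most 30 in a library of replicates 1 and 4. TEC loci with a read numbered 591 and 574 in CHIR99021 replicates 1 and 4 against 340 and 368 in replicates 2 and 3, and in control 674 and 583 against 405 and 307.

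**Figure D5:**
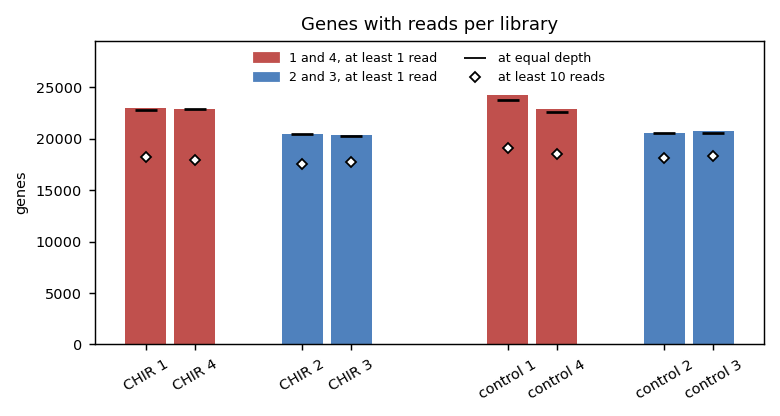
Genes with at least 1 read per library (bars), the same at equal depth (black dashes) and genes with at least 10 reads (diamonds), with replicates 1 and 4 left of replicates 2 and 3 in each treatment. The 4 libraries numbered 1 and 4 hold at least 22838 genes with a read and the 4 numbered 2 and 3 at most 20698, while at 10 reads or more the gap is small.

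Whether the response to CHIR99021 differed between the sides is a contrast separate from the side difference, since each side holds 2 libraries of each treatment. The sides were nevertheless chosen on the same expression values, which can make the spread within a side too small, so the p-values of this test and of the CHIR99021 effect with the side as a covariate may be too small. The response was tested in limma as an interaction on log2(CPM + 1), two-sided, with Benjamini-Hochberg adjustment over 14264 genes. The test called 4 genes (0.0280%), and 205 had an unadjusted p under 0.05. The largest was Rpl5-ps1, a processed pseudogene that shares 53.2% of its windows, most often with the ribosomal protein gene Rpl5, and had 0.78 and 0.33 CPM in CHIR99021 replicates 1 and 4 and 22.5 and 30.7 CPM in control replicates 1 and 4, against 0.83 and 0.60 CPM in CHIR99021 and 0.74 and 0.50 CPM in control replicates 2 and 3. Its interaction was -4.23 with a standard error of 0.32 and an adjusted p of 0.00169 in limma. High values of Rpl5-ps1 were thus seen in control replicates 1 and 4 alone. Rpl17-ps5, a pseudogene whose windows all occur elsewhere, most often in Rpl17, had 21.2 and 24.2 CPM in CHIR99021 and 57.5 and 54.7 CPM in control replicates 1 and 4, against 59.4 and 67.7 CPM in CHIR99021 and 43.0 and 33.9 CPM in control replicates 2 and 3. The limma interaction of Rpl17-ps5 was -1.99 with a standard error of 0.17 (adjusted p = 0.00347). Gm10171, the copy of Timm23, had an interaction of -1.86 with a standard error of 0.19 in limma (adjusted p = 0.00805). Rpl5 itself, Rpl17 and Timm23 differed between the sides by -0.16, 0.13 and -0.19. The 1 protein-coding gene was Hspa1b, an inducible HSP70 chaperone of which 55.7% of the windows are shared, mainly with Hspa1a. Hspa1b had 6.08 and 5.59 CPM in CHIR99021 and 2.09 and 2.19 CPM in control replicates 1 and 4, against 2.31 and 3.00 CPM in CHIR99021 and 5.96 and 8.51 CPM in control replicates 2 and 3, an interaction of 2.28 with a standard error of 0.27 (limma adjusted p = 0.0300). The gene with the next smallest p, Hapln1, a cartilage link protein, had an interaction of 0.96 and did not pass (limma adjusted p = 0.383).

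With the replicate number as a block, since same-numbered libraries deviated together, limma called 8 genes for the interaction: those 4, the nuclear mitochondrial copies Gm28437, Gm10925 and Gm28661, and Rgs5, a pericyte gene, at 1.24 (limma adjusted p = 0.00376). Leaving out control replicate 4 ended every call, and leaving out control replicate 1 left 1.

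The CHIR99021 effect itself, which was balanced over the sides, passed in limma for 5699 genes with the side as a covariate (40.0%), 2125 of them higher, and for 4805 genes without it. On TMM-scaled values 2988 of 5726 were higher. Axin2, a feedback target of β-catenin, had 273 and 264 CPM in CHIR99021 replicates 1 and 4 and 288 and 239 CPM in replicates 2 and 3, against 81.5 and 101 CPM in control replicates 1 and 4 and 90.7 and 78.4 CPM in replicates 2 and 3. Axin2 passed at an adjusted p of 4.36e-07 in limma with the side as a covariate. The response of Axin2 had an interaction of -0.07 with a standard error of 0.17, and that of Lef1, a β-catenin partner, an interaction of 0.02 with a standard error of 0.12 in limma.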

How the data were processed

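RNA of 8 cochlear explant samples was analysed. The authors mapped reads to GRCm38 with HISAT2, and the counter is not given in the sources used here. They deposited CPM per gene for 42775 genes (15944 at 0 in all libraries), beside columns of their own CHIR99021 comparisons (fold, log2 fold, p, false discovery rate), which were not used. In the deposited CPM 100% of values were whole reads within 0.001 read, so reads were recovered for the alternatives with edgeR 4.0.16 (5625 genes called for CHIR99021 and 4 for the interaction) and DESeq2 1.42.0 (6132 and 18).

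The members, gene lists (31 lists and 15 classes) and rules were chosen with earlier results of these data known. Gene IDs were matched to GENCODE M21 (42545 IDs, 99.5%). Sharing was measured as the percent of sampled 75-base transcript windows found in an annotated transcript of another gene. limma 3.58.1 (R 4.3.3) with a trend was run on log2(CPM + 1) for the 14264 genes averaging 1 CPM or more; this scale understates differences of low genes. Scripts were tested on simulated data.

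Named genes were the 15 coding genes at each end and 5 others at each end among those apart by at least 0.5, 3 of each list or class and the 5 of smallest interaction p; not all have values in the text, and further genes were named after their values were seen. Libraries of the same number correlated with r of 0.51, 0.25, 0.35 and 0.34 for numbers 1 to 4 after removal of the treatment means. That leaves in the side difference that they share. After removal of the side means too, r was 0.37 for numbers 1 and 4 and 0.19 for numbers 2 and 3. With 2 libraries per treatment and side, both numbers of a side must give the same r. Within a side the numbers also differ in sex, so number and sex cannot be told apart there. The labels do not state a pairing. The labels do not say whether replicates came from separate litters, so p-values measure the spread between these samples. Alternatives were TMM scaling, a pseudocount of 0.1, no filter, a minimum of 5 CPM, single treatments, a limit of 1, a replicate block, edgeR, DESeq2 and leaving out each library.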

Additional observations from a re-analysis of the deposited data

Results flagged for a closer look

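Over 116 groups of 4 libraries, 11 had 1 library away from the other 3 past the 95% limit of Dixon's ratio, and their causes were not tested. Chance gives about 1 group in 20 where groups are independent, but several here are linked, such as the mitochondrial copies and their sum. The ratio sets the gap against the range of the group, so a small gap can pass. In CHIR99021, replicate 4 was high for mt-Co2 (2033 CPM), mt-Co3 (2279 CPM) and mt-Nd3 (241 CPM), and slightly low for Lef1 (173 CPM against 181 to 182 CPM). CHIR99021 replicate 3 was high for the mitochondrial copies Gm28437 (878 CPM), Gm29216 (229 CPM) and Gm28438 (110 CPM) and for the sum of the 7 copies (2977 CPM). CHIR99021 replicate 2 was high for Rpl15-ps3 (27.7 CPM) and slightly high for Rpl15 (274 CPM against 251 to 254 CPM). Control replicate 4 was high for Hist1h2ap (27.3 CPM).

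The response to CHIR99021 differed between replicates 1 and 4 and replicates 2 and 3, by limma's interaction, for Rpl5-ps1 (-4.23), Hspa1b (2.28), Rpl17-ps5 (-1.99) and Gm10171 (-1.86), each of which shares more than 50% of its 75-base windows with another gene.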

How the results depend on the processing

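Against 221 genes apart and higher by at least 0.5, the count was 122 at a mean CPM of at least 5 and 29 at a limit of 1, and 187 to 327 with a library left out. Against 39 genes apart and lower, the count was 64 with a pseudocount of 0.1, 107 in CHIR99021 alone, 112 in control alone, 8 at a limit of 1 and 44 to 64 with a library left out. The median of TEC loci was 0.74 with a pseudocount of 0.1. The difference in genes with a read was 2727 per library, against 529 at 10 reads or more and 76.8 at a CPM of at least 1. The interaction gave 0 genes with no filter (950 at an unadjusted p under 0.05), 8 with the replicate block, 18 with DESeq2 and 0 to 14 with a library left out; the 0 came without control replicate 4, and edgeR called 4. The CHIR99021 effect kept within 1.5 times its count in all 16 alternatives, with 5908 genes under the replicate block. Of 2140 recomputed differences of named genes 52 moved by more than the spread between replicates. None of the genes apart by at least 0.5 changed sign, but the rule that chose them left almost no room for that.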
